A study of Sus scrofa with 20 samples.

Results

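The liver transcriptome of the Nanchukmacdon pig, a Korean breed that descends from Jeju native pigs, was described from 5 liver RNA-seq samples of the 20 samples in the series, the other samples being backfat RNA-seq and bisulfite libraries of both tissues. The members were chosen by tissue and assay alone, and no contrast with backfat was made. Each library was made from poly(A) mRNA of bulk liver of a wild-type boar, labelled as normal in disease state and 22 months old, although the study's methods give a different average age. The labels name no treatment, so the 5 libraries form 1 group and the spread between them is the spread between animals, tissue pieces and library preparations together. The libraries are named liver 65, 67, 69, 71 and 72 after the animal numbers in the count table.

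The liver is the organ that makes most proteins of the blood plasma, and the hepatocyte, its main cell, exports albumin, apolipoproteins, clotting factors, complement and protease inhibitors through the endoplasmic reticulum. The same cell turns amino acids into urea and glucose, makes bile acids and cholesterol, stores glycogen and iron, and modifies drugs and steroids with cytochrome P450 and conjugating enzymes. Kupffer cells, which are resident macrophages, sinusoidal endothelium, stellate cells and bile duct cells make up the rest of the tissue.

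Between 43820042 and 53768601 fragments were counted per library. Levels are given as TPM, which divides each count by the exonic length of the gene and scales every library to a total of 1000000. Unless stated otherwise the genes of the mitochondrial genome were left out before scaling, and the result is termed nuclear TPM. TPM is a share of a pool, so a gene can rise only if others fall. When the libraries were scaled instead by TMM, which sets the bulk of moderately expressed genes level, all genes of a library shifted against TPM by between -0.53 in liver 67 and 0.36 in liver 71 on the log2 scale. Directions below are named for both scales where they differ.

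Liver 67 differed most from the other 4 libraries in its mitochondrial share and in many of the sums below. Across 12976 genes with a mean of at least 1 TPM, the log2(TPM + 1) values of liver 67 correlated with those of the other libraries at Pearson r between 0.876 and 0.925, and the 6 pairs without it gave 0.926 to 0.984. By Spearman's rho the ranges overlapped, with 0.857 to 0.909 for the pairs with liver 67 and 0.907 to 0.981 for the others. These are correlations across genes, which are not replicates. Values are therefore given with and without liver 67.

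The hepatocyte markers ALB, APOE, FGB, TF and SERPINC1 were abundant in every library, none falling under 1262 TPM. Their summed nuclear TPM was 55829.6 in liver 65, 21540.3 in liver 67, 62159 in liver 69, 58348 in liver 71 and 58682 in liver 72. On the TPM scale the sum was thus nearly level in 4 libraries, with a coefficient of variation (CV, the SD divided by the mean) of 4.43%, and 0.367 times the mean of those 4 in liver 67. The same 4 libraries varied by 17.8% on the TMM scale. Each single marker was less steady than the sum.

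ALB encodes albumin, the main carrier and osmotic protein of plasma. It stood at 13544 TPM in liver 65, 4654 in liver 67, 14926 in liver 69, 14657 in liver 71 and 16322 in liver 72. Apart from liver 67, the values lay within 1.21-fold of each other, or within 1.59-fold on the TMM scale. APOE, the ligand by which lipoprotein remnants are taken up, stood at 19513, 10682, 19144, 37460.3 and 31683 TPM in the same order. TF, the iron carrier transferrin, stood at 12024, 2718, 16245, 2523 and 5237 TPM, a 6.44-fold range among the libraries other than liver 67. Livers 71 and 72 were the highest for APOE, and livers 65 and 69 were the highest for TF.

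FGB, the beta chain of fibrinogen, stood at 5365, 2223, 6849, 1989 and 2446 TPM. SERPINC1, the thrombin inhibitor antithrombin, stood at 5383 TPM in liver 65, 1262 in liver 67, 4995 in liver 69, 1719.8 in liver 71 and 2993 in liver 72. Both genes had their highest levels in livers 65 and 69, also on the TMM scale. The promoters of 5 abundant plasma protein genes are shown here. ALB and APOE are hepatocyte markers, APOC3 and APOA1 are neighbours, and APOH was chosen because its window held a motif match. AHSG, which is more abundant than ALB and APOH, held no match to TATAAA or GTTAAT and is not shown. The windows of the markers FGB and SERPINC1, and of FGG and VTN, were read too, held no such match and are not shown. Those of FTL and HRG held TATAAA and are not shown either.

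ALB, chr8:69643177-69643476, plus strand: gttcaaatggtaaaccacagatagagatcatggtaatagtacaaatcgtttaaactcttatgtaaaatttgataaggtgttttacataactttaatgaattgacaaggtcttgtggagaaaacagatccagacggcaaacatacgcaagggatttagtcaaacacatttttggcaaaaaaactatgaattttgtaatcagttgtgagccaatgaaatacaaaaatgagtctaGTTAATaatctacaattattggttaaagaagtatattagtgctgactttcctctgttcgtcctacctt
APOE, chr6:51372863-51373162, plus strand: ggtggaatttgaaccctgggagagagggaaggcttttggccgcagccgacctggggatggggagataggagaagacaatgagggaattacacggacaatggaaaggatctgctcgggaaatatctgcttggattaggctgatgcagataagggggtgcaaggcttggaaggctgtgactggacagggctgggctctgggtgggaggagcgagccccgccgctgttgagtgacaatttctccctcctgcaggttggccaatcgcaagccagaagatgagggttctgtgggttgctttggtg
APOC3, chr9:44210921-44211220, plus strand: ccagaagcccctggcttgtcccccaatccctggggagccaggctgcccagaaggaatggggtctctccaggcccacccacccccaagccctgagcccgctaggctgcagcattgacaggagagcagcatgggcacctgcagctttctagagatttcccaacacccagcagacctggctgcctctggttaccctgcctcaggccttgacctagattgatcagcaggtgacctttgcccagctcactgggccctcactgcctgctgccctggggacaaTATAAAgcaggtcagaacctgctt
APOA1, chr9:44218311-44218610, minus strand: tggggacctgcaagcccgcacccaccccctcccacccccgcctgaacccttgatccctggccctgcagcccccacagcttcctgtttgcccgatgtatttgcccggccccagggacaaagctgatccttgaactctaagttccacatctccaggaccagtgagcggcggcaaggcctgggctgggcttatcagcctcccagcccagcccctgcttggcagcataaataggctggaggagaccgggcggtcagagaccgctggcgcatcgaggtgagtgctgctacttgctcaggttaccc
APOH, chr12:12839123-12839422, minus strand: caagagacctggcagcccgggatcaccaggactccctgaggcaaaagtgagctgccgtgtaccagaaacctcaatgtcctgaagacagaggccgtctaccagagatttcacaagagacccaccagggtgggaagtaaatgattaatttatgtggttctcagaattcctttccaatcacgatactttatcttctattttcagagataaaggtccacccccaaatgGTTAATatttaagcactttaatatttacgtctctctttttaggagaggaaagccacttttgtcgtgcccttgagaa

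Each run reads 5′ to 3′ on the gene's own strand, from 250 bases before to 50 bases after the RefSeq gene start on Sscrofa11.1, the build of the count table. Capitals mark matches, on either strand, to TATAAA, the letters of a TATA box, or GTTAAT, a core of sites bound by the hepatocyte factor HNF1. ALB and APOH each held 1 GTTAAT, 18 and 26 bases before the start, and APOC3 held TATAAA from base 27 after it. No match to them was found in the APOE and APOA1 windows, which says only that these letters are not in them.

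Among the 100 most abundant genes, 71 had a RefSeq promoter of this kind. TATAAA was present in 16.9% of the 71, against 10.9% of all 19506 protein-coding promoters and 7.57% of the 9873 promoters of genes at a mean of 1 TPM or more. GTTAAT was present in 14.1%, against 6.45% and 5.00%. TTNNGNAA, a loose form of the C/EBP site, was present in 49.3%, against 35.1% and 31.2%, and the GC box GGGCGG in 43.7%, against 50.6% and 63.3%. CAAAGTCCA, a form of the HNF4 site, was present in none of the 71 and in 0.379% of all promoters. No test was made of these shares, and a match describes letters, not a bound site.

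The mitochondrial genome took a large and uneven part of the mRNA. Its genes held 17.3% of TPM in liver 65, 67.4% in liver 67, 16.4% in liver 69, 36.7% in liver 71 and 24.3% in liver 72, or 32.4% ± 21.2 (SD, n = 5). Without liver 67 the range was 16.4% to 36.7%. As a share of counts, with no division by length, the values were 7.00%, 45.0%, 6.41%, 20.4% and 12%, in the same order of libraries.

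Mitochondrial mRNAs encode subunits of the respiratory chain and of ATP synthase. COX3, a subunit of cytochrome c oxidase, was the leading transcript with 23.6% ± 2.63 (SD, n = 5) of mitochondrial TPM, followed by COX1 with 18.3% ± 1.21, ATP6 with 16.0% ± 0.772 and COX2 with 12.7% ± 0.486. ND5, a subunit of complex I, was at 1.46% ± 0.171 and ND4L at 1.43% ± 0.158. The proportions among mitochondrial genes were therefore far steadier than their total. COX3 ranged from 19.7% in liver 67 to 26.9% in liver 69.

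Nuclear genes of oxidative phosphorylation varied far less than the mitochondrial total. Their 60 matched members held 0.849%, 1.04%, 0.824%, 0.871% and 0.871% of nuclear TPM in livers 65, 67, 69, 71 and 72. COX4I1, a nuclear subunit of cytochrome c oxidase, was high in liver 67 at 1756 TPM against 337 to 598 in the others, whereas NDUFA4 was low there at 252 TPM against 412 to 518. On the TMM scale liver 67 had the lowest sum of the list, 0.718, and liver 71 the highest, 1.12.

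**Figure D1:**
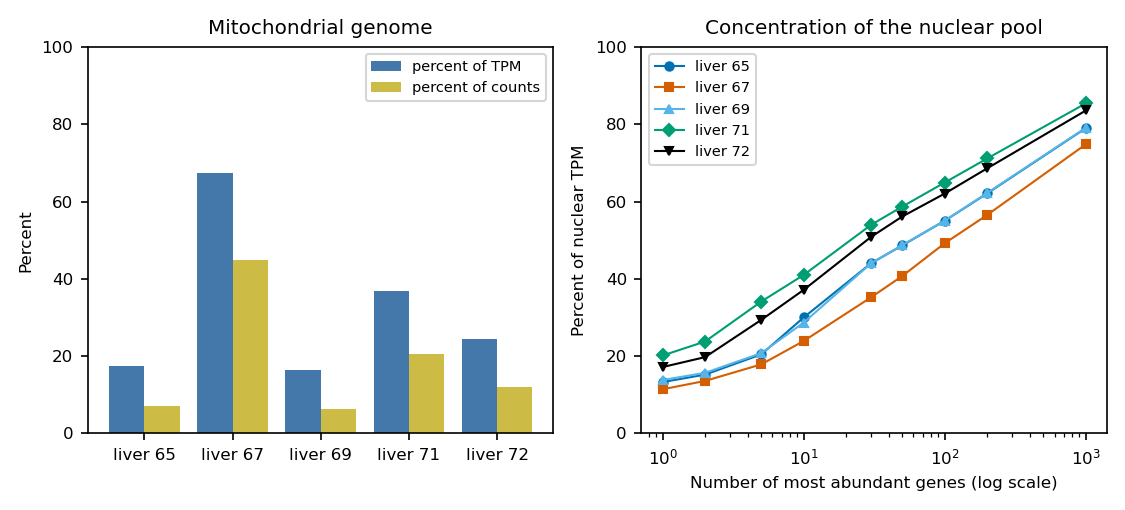
Left, bars give the percent of TPM and of counts in the mitochondrial genome in each of the 5 libraries. Right, lines give the percent of nuclear TPM held by the most abundant genes, with the number of genes on a log axis. Liver 67 had the largest mitochondrial share, 67.4% of TPM, and the most even nuclear pool, in which 1000 genes held 74.8% against 85.4% in liver 71.

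A total of 11088 nuclear genes reached 1 TPM in each of the 5 libraries and 4731 reached 10 TPM in each. In a single library, 11774 to 13957 genes reached 1 TPM, the highest number being in liver 67. By mean level, 963 genes were at or above 100 TPM and 93 at or above 1000 TPM. No count was recorded in any library for 7994 of the 31907 genes.

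The nuclear pool was concentrated in few genes. The 10 most abundant genes held 32.1% ± 6.86 (SD, n = 5) of nuclear TPM, the first 100 held 57.3% ± 6.25 and the first 1000 held 80.4% ± 4.18. By library the first 10 held 30% in liver 65, 23.9% in liver 67, 28.7% in liver 69, 41.0% in liver 71 and 37.1% in liver 72. Counted within each library, 50% of the pool was reached with 56, 95, 55, 20 and 26 genes. Liver 71 was the most concentrated library and liver 67 the least.

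The most abundant nuclear transcript was the gene ENSSSCG00000024911, with 423 exonic bases, to which the name table used here pairs no symbol. It stood at 132813 TPM in liver 65, 114149 in liver 67, 138057 in liver 69, 201603 in liver 71 and 171677 in liver 72, or 15.2% ± 3.48 (SD, n = 5) of nuclear TPM. The gene is short, so it weighs more in TPM than in counts, of which it held 2.83% ± 0.899 (SD, n = 5) and was the third gene. By counts APOE led, with 3.73% ± 2.0. Among the 30 most abundant genes 6 had no symbol, among the first 100 there were 26, and genes with no symbol held 27.5% to 34.0% of nuclear TPM. Shares by function given below therefore cover only the members that the table names.

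Short transcripts were common at the top. The 100 most abundant genes had a median exonic length of 1495 bases, against 4022 bases over all genes at a mean of 1 TPM or more, and 33.0% of them were shorter than 1000 bases, against 7.28%. TPM itself divides by this length.

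**Figure D2:**
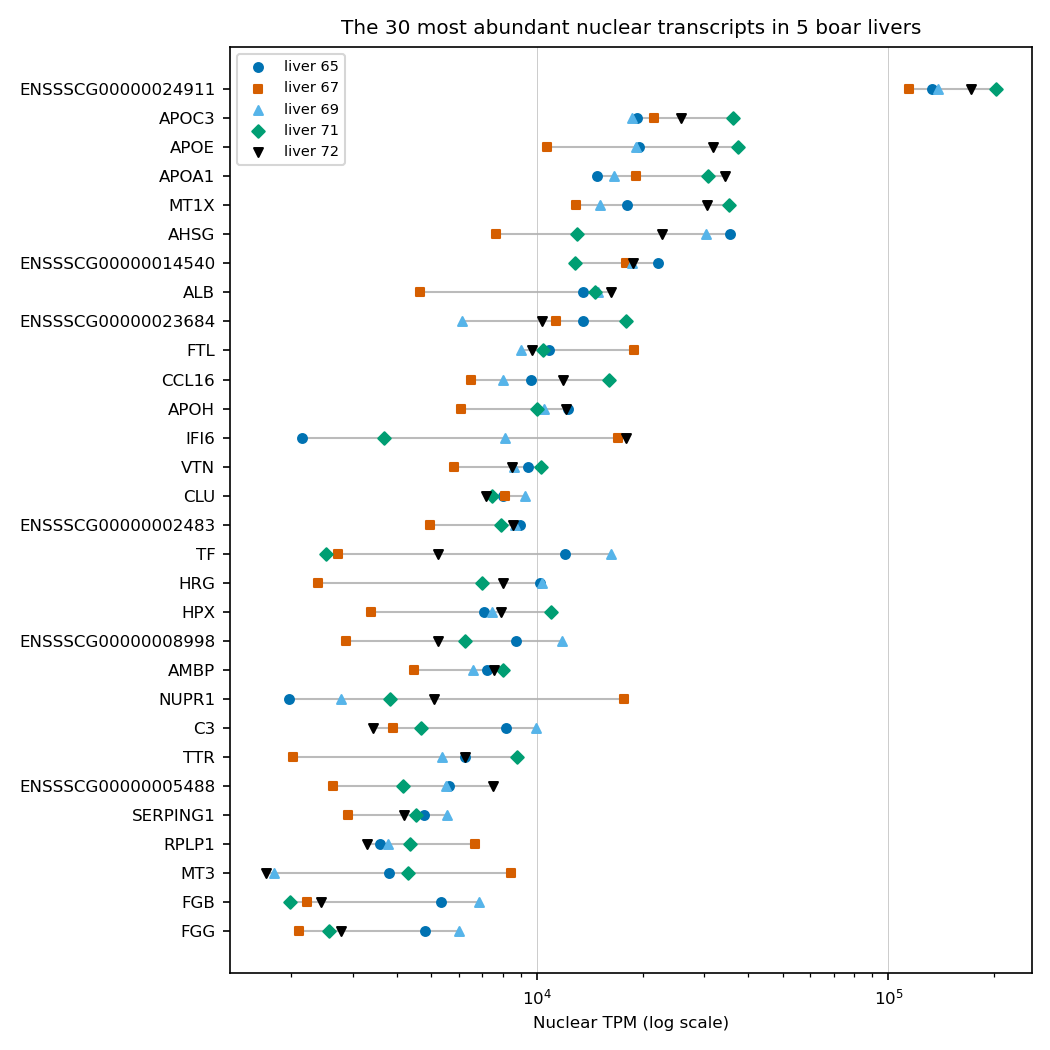
Nuclear TPM on a log axis for the 30 most abundant genes, 1 row a gene, 1 symbol a library, with a grey line from the lowest to the highest value. ENSSSCG00000024911 lay at or above 114149 TPM in all 5 libraries, and IFI6, TF and NUPR1 had the widest ranges.

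Apolipoproteins were the largest list by mean share, although in liver 67 cytosolic ribosomal proteins held more, 6.54% against 6.01%. The 15 matched members of the list of apolipoproteins and lipoprotein assembly held 6.99%, 6.01%, 6.88%, 11.9% and 10.8% of nuclear TPM in livers 65, 67, 69, 71 and 72. APOC3, an inhibitor of triglyceride hydrolysis carried on lipoproteins, was the second gene of the pool at 19289, 21629, 18674, 36159 and 25704 TPM. APOA1, the structural protein of high-density lipoprotein, stood at 14829, 19153, 16636, 30716 and 34215 TPM. Livers 71 and 72 were highest for both, as for APOE, and they remained so on the TMM scale. APOH, a phospholipid-binding plasma protein, was steadier at 12246, 6095, 10524, 10028 and 12111 TPM.

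Protease inhibitors followed a different order. Their 18 matched members held 6.33%, 2.35%, 5.85%, 3.49% and 4.59% of nuclear TPM, and AHSG, the mineral-binding glycoprotein fetuin-A, made up 48.2% of the list. AHSG stood at 35372 TPM in liver 65, 7654 in liver 67, 30299 in liver 69, 13001 in liver 71 and 22652 in liver 72. AMBP, the precursor of alpha-1-microglobulin and bikunin, was steadier than AHSG at 7248, 4471, 6575, 8008 and 7542 TPM, a CV of 20.5%. With TMM scaling the CV of AMBP was 39.8%. SERPING1, the inhibitor of complement C1, ranged from 4199.5 to 5558 TPM outside liver 67, where it was 2910.1.

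The 12 matched plasma carrier proteins held 4.43%, 1.52%, 4.90%, 4.09% and 4.03% of nuclear TPM. HPX, which carries heme, stood at 7074, 3383, 7449, 10985 and 7932 TPM. TTR, which carries thyroid hormone and retinol-binding protein, stood at 6259, 2037, 5367, 8786 and 6254 TPM. The list total varied by 9.15% without liver 67, and TF was the exception among its leading members.

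Coagulation and fibrinolysis genes held 4.14%, 1.96%, 4.34%, 3.04% and 2.95% of nuclear TPM over 19 matched members, all at 1 TPM or more in every library. VTN, the adhesive protein vitronectin, led with 9456, 5806, 8623, 10307 and 8526 TPM. HRG, a heparin-binding plasma glycoprotein, stood at 10212, 2396, 10336, 7001 and 7999 TPM. FGG, the gamma chain of fibrinogen, stood at 4827, 2117, 6007, 2575 and 2788 TPM and thus had the same order of livers 69, 65, 72 and 71 as FGB.

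Complement genes held 1.35%, 0.869%, 1.63%, 1.03% and 0.773% over 19 matched members, of which C3, the central component, made up 53.5%. C3 stood at 8186, 3914, 9979, 4693 and 3419 TPM. MBL2, the mannose-binding lectin that starts the lectin pathway, was high in a single library, with 167 TPM in liver 65, 129.7 in liver 67, 175 in liver 69, 960.4 in liver 71 and 204 in liver 72. CFB, which forms the alternative-pathway convertase with C3, was lowest in liver 71, with 244, 50.9, 329, 12.6 and 51.0 TPM. It was chosen for mention after its values were seen. Being lowest in liver 71 was common in TPM, being found for 3384 of the 6372 genes at a mean of 10 TPM or more. MBL2 was also highest in liver 71 on the TMM scale, at 1235 against 89.6 to 243 in the others.

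Hepatokines and hormone precursors had the lowest CV of the 32 lists over the 5 libraries on the TPM scale. The 22 matched members held 0.892%, 0.757%, 0.852%, 0.844% and 0.900%, a CV of 6.68%. Without liver 67 the CV was 3.22%, and the lists of nuclear oxidative phosphorylation, at 2.64%, and cytoskeleton, at 3.20%, were lower. Scaled by TMM, the list varied by 17.1% without liver 67. RARRES2, the adipokine chemerin, stood at 2115, 2581, 2039, 2661 and 2452 TPM, and HGFAC, which activates hepatocyte growth factor, at 1317, 977, 1101, 1029 and 1109 TPM. LECT2, a secreted chemotactic factor, stood at 884 TPM in liver 67 and 1534 to 1819.9 TPM in the others. Of the acute phase list only 4 of 12 members were matched, and their sum stayed between 0.0558% and 0.111%. HAMP, the iron hormone hepcidin, ranged from 4.84 TPM in liver 69 to 44.5 TPM in liver 65.

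Together, the 7 lists of secreted plasma proteins, counting each gene once, held 24.2% of nuclear TPM in liver 65, 13.5% in liver 67, 24.6% in liver 69, 24.5% in liver 71 and 24.1% in liver 72. Outside liver 67 the total had a CV of 0.955%, although apolipoproteins varied by 28.5% and protease inhibitors by 25.3% among the same 4 libraries. This level total belongs to the TPM scale. As a share of nuclear counts it was 26.7%, 14.9%, 27.7%, 30.4% and 28.6%, and scaled by TMM with the mean set to 100 it was 95.2, 40.9, 101, 138 and 125. Liver 67 was lowest on each of these scales.

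**Figure D3:**
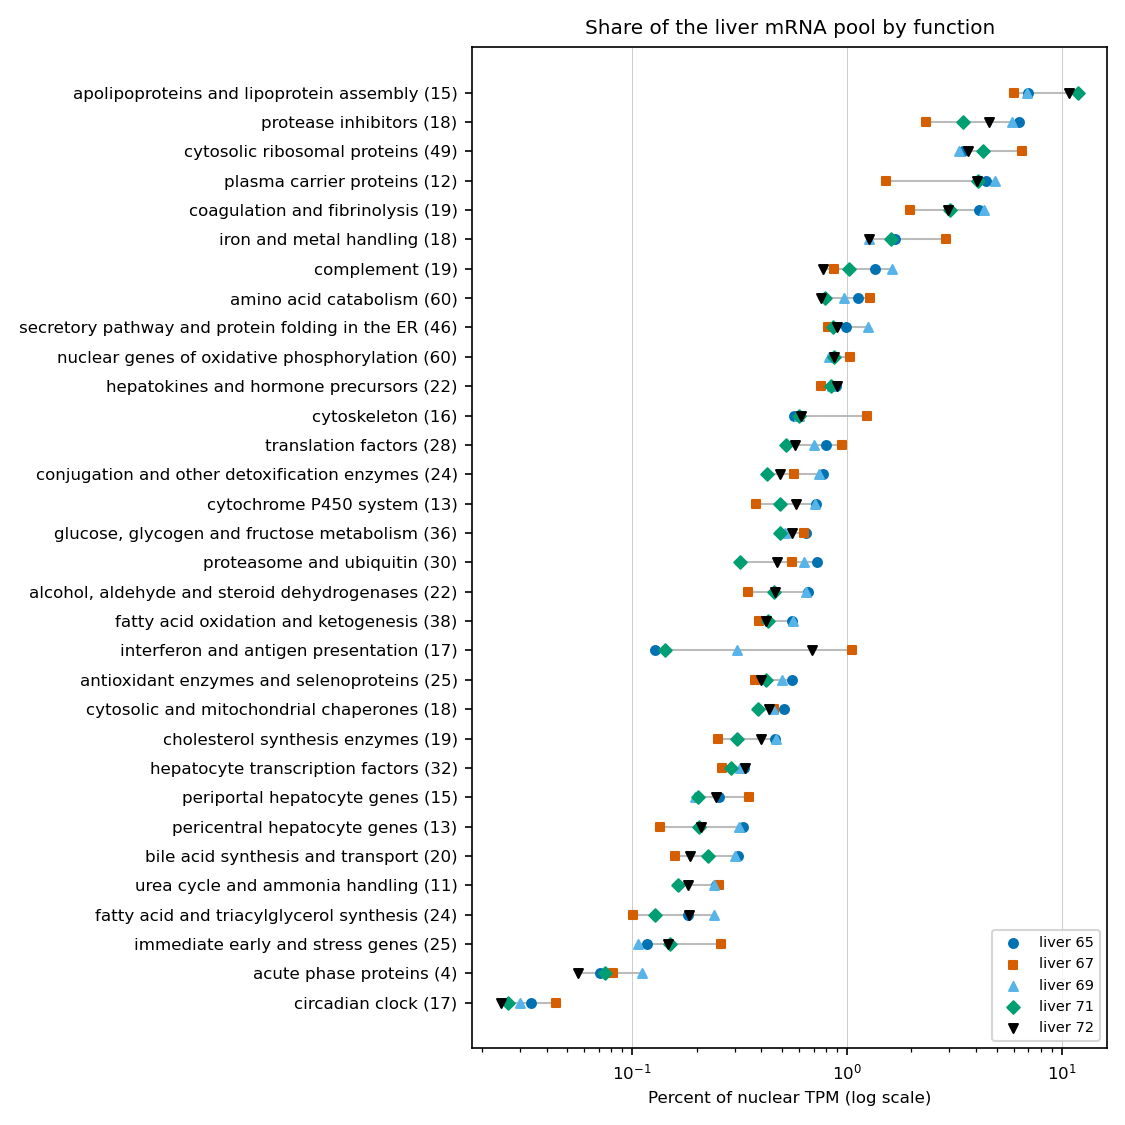
Percent of nuclear TPM, on a log axis, summed over the matched members of each of 32 gene lists, whose number is in brackets. Symbols are libraries and grey lines join the lowest and highest values. The interferon list had the widest relative range, from 0.128% in liver 65 to 1.06% in liver 67.

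Among matched genes, enzymes of drug and steroid metabolism took much less of the pool than plasma proteins. Their 3 lists were matched less fully, with 59 of 108 symbols found, against 109 of 141 for plasma proteins. The cytochrome P450 list, with 13 of 30 members matched, held 0.717%, 0.378%, 0.71%, 0.488% and 0.577%. CYP2D6, an oxidase of many basic drugs, led with 2566, 2068, 2759.9, 2084 and 2749 TPM. CYP2E1, which oxidises ethanol and, in pigs, skatole, stood at 1427, 484, 1363, 870.5 and 751 TPM. CYP2A19 stood at 717, 18.9, 707, 617 and 653 TPM, level in 4 livers and 0.028 times their mean in liver 67. Members of the P450 families have near-identical copies, so their reads may be divided between genes.

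Conjugating and other detoxifying enzymes held 0.427% to 0.770%. EPHX1, a microsomal epoxide hydrolase, stood at 1258, 163, 1257, 179.7 and 383 TPM, with livers 65 and 69 nearly equal and well above the rest. FMO1, a flavin monooxygenase, stood at 1101, 1001, 884, 566 and 639.8 TPM. Alcohol, aldehyde and steroid dehydrogenases held 0.347% to 0.662%, led by the retinal dehydrogenase ALDH1A1 at 1416, 792, 1749, 888 and 867 TPM. The 3 lists together were highest in livers 65 and 69, with 2.15% and 2.09%, and lowest in liver 67, with 1.29%.

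Amino acid catabolism held 1.13%, 1.28%, 0.974%, 0.788% and 0.757% over 60 matched genes, of which 57 reached 1 TPM in all 5 libraries. HPD, which degrades tyrosine, led with 1414, 3103, 1532, 1679 and 1178 TPM. It was highest in liver 67 on the TPM scale, but on the TMM scale liver 71 was slightly higher, at 2159 against 2143. The urea cycle list held 0.163% to 0.254%. OTC ranged from 356 to 493 TPM and ASL, which splits argininosuccinate, from 215 TPM in liver 72 to 871 TPM in liver 67.

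Several genes of glucose, glycogen and amino acid metabolism were lowest in liver 69. PCK1, the gluconeogenic kinase that hormones of fasting induce, stood at 274, 509, 102, 372 and 507 TPM. G6PC1, the catalytic subunit of glucose-6-phosphatase, stood at 302, 478, 134, 429.7 and 576 TPM. GYS2, the glycogen synthase of liver, stood at 481, 772, 119, 441 and 312 TPM, and TAT, a tyrosine aminotransferase under glucocorticoid and glucagon control, at 562, 742, 254, 285 and 448 TPM. These 4 were put together after their values were seen, so their common order is no separate result. Liver 69 held the lowest value of 13.1% of the 6372 genes at a mean of 10 TPM or more. That rate is no measure for genes picked in this way. PCK1, G6PC1, GYS2 and TAT were lowest there on the TMM scale also. Other enzymes of gluconeogenesis were not, since FBP1 stood at 338, 188, 219.5, 278 and 308 TPM and the mitochondrial PCK2 at 888, 189, 712, 399 and 497 TPM, both lowest in liver 67 on either scale.

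The whole glucose, glycogen and fructose list was steady all the same, between 0.486% and 0.643%. ANGPTL8, a secreted regulator of lipoprotein lipase that rises with feeding, was highest in liver 69 with 382, 81.9, 884, 134 and 149 TPM, and was named after its values were seen. The clock gene PER1 stood at 71.6, 211, 17.9, 64.2 and 65.5 TPM and the clock repressor BHLHE40 at 17.9, 17.4, 55.6, 21.3 and 12.8 TPM, so that liver 69 was the lowest for the former and the highest for the latter.

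Fatty acid synthesis held 0.183%, 0.101%, 0.240%, 0.128% and 0.184% of nuclear TPM. THRSP, an activator of lipogenesis, was low in liver 67 at 43.0 TPM against 250.0 to 377 TPM, and SCD, the stearoyl-CoA desaturase, stood at 139.7, 79.0, 215, 138 and 217 TPM. Fatty acid oxidation and ketogenesis held 0.390% to 0.563%, with ECHS1, a hydratase of beta-oxidation, between 383 and 505 TPM. Cholesterol synthesis held 0.251% to 0.466%. Its leading members were IDI1 at 989, 372, 924, 585 and 1030.1 TPM and EBP at 589, 400.5, 611, 552 and 631 TPM. Bile acid genes held 0.159% to 0.311%, and CYP27A1, which oxidises the sterol side chain, was among their steadier members at 928, 771, 917, 714 and 726 TPM.

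Metal-binding proteins were prominent. MT1X, a metallothionein that buffers zinc and copper, was the fifth gene of the pool at 18036, 12943, 15133, 35266 and 30405 TPM. MT3, of the same family, stood at 3807, 8435, 1792, 4310.1 and 1705 TPM. Metallothionein genes are near-copies, so the division of reads between them is uncertain. FTL, the light chain of the iron store ferritin, stood at 10853 TPM in liver 65, 18954 in liver 67, 9032 in liver 69, 10407 in liver 71 and 9691 in liver 72. On the TMM scale liver 71 was slightly higher than liver 67, at 13385 against 13090.5.

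The machinery of protein synthesis and export was spread over many genes at moderate levels. Cytosolic ribosomal proteins held 3.49%, 6.54%, 3.31%, 4.30% and 3.67% over 49 matched genes of 83, and 43 of them were highest in liver 67. That library was the highest for 3090 of the 6372 genes at a mean of 10 TPM or more. For the ribosomal list liver 71 was the highest on the TMM scale, with a sum of 5.53 against 4.52 in liver 67. The secretory pathway list held 0.990%, 0.819%, 1.26%, 0.859% and 0.899%. P4HB, the protein disulfide isomerase, led with 1432, 624, 1665, 1133 and 1193 TPM, and the chaperone CALR stood at 776, 991, 1104, 879 and 844 TPM. All 46 matched members of this list were at 1 TPM or more in every library.

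The transcription factors of the hepatocyte were few in transcripts. All 32 were matched and 31 of them reached 1 TPM in every library, but their sum was 0.332%, 0.261%, 0.317%, 0.288% and 0.336%. ATF5 stood at 843, 384, 763, 672 and 866 TPM, and CREB3L3, which controls apolipoprotein and lipid genes, at 294, 475, 335, 431 and 465 TPM. Genes that hepatocytes near the central vein favour held 0.134% in liver 67 and 0.205% to 0.330% in the others. Genes favoured near the portal vein held 0.352% in liver 67 and 0.196% to 0.254% in the others, but on the TMM scale liver 72 was the highest, with 0.292 against 0.243 in liver 67.

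Interferon-responsive genes had the highest CV of the 32 functional lists, 86.2%, or 82.2% without liver 67. The 17 matched members of the interferon and antigen presentation list held 0.128% of nuclear TPM in liver 65, 1.06% in liver 67, 0.307% in liver 69, 0.143% in liver 71 and 0.686% in liver 72. ISG15, a ubiquitin-like protein induced by interferon, made up 46.3% of the list and so weighs heavily in its CV. The median CV of the 16 members at a mean of 10 TPM or more was 76.8%. ISG15 stood at 146, 5642, 1085, 117 and 3748 TPM, a range of 32.1-fold even without liver 67. With TMM scaling liver 72 was the highest for ISG15 and for the list. MX1, an antiviral GTPase, stood at 85.0, 506, 497, 42.2 and 681 TPM, and OAS2, which activates RNase L, at 77.9, 356, 273, 64.2 and 534 TPM. IFI6, a mitochondrial interferon-induced protein and the 13th gene of the pool, stood at 2149.6, 17002, 8115, 3681 and 17946 TPM.

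In TPM, livers 65 and 71 were the lowest pair for 13 of the 17 members. The pair was read from the list sums of these same values, so the count is no separate support for it. Among all genes at a mean of 10 TPM or more, this pair was the lowest for 5.43%. The members of this list share regulators and are not independent of each other. CD74, the invariant chain of antigen presentation, differed from the antiviral genes with 649, 2538, 581, 988 and 789.9 TPM. It was highest in liver 67, on the TMM scale too, with 1753 against 1271 in liver 71.

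Among markers of other cell types, those of macrophages had the highest mean sum, although red cell markers exceeded them in liver 67. The 10 Kupffer cell and macrophage markers summed to 2064, 1897, 1790.0, 1397 and 1719 TPM, a CV of 13.9%. CD14, the endotoxin co-receptor, which hepatocytes make too, had the highest mean of them, at 549, 382, 478, 565 and 585 TPM. C1QC was higher than CD14 in livers 65, 67 and 69, at 635, 430 and 522 TPM. Endothelial markers summed to 503, 536, 385, 249 and 257 TPM, with CLEC4G, a lectin of sinusoids, at 170.0 to 327 TPM. Bile duct markers summed to 102 to 195 TPM. In bulk tissue, fewer cells of a type and less RNA per cell cannot be told apart.

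Liver 67 carried more transcripts of blood and, on the TPM scale, of connective tissue. The red cell markers, 6 of 8 matched, summed to 405, 5814, 178, 466 and 752 TPM, and HBB, the beta chain of hemoglobin, alone stood at 369.5, 5181, 163, 429 and 691 TPM. Neutrophil markers, 3 of 6 matched, summed to 7.21, 111, 3.59, 8.54 and 17.1 TPM, and B and plasma cell markers, 7 of 7, to 30.1, 149, 19.8, 39.0 and 26.1 TPM. Stellate cell and fibroblast markers, 12 of 12, summed to 499, 1043, 454, 556 and 551 TPM, with COL1A1, a chain of collagen, at 292 TPM in liver 67 and 84.4 to 151 TPM in the others. On the TMM scale liver 67 remained the highest for these 4 lists, although for stellate cells by only 720 against 715 in liver 71. COL1A1 then stood at 202 in liver 67 and 194 in liver 71. COL3A1 was nearly level on that scale, at 159, 158, 147, 129 and 146. COL1A2 was highest in liver 71, at 126 against 89.9 in liver 67.

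Skeletal muscle markers, 7 of 13 matched, summed to 199 TPM in liver 67 and to between 2.17 and 3.89 TPM in the other libraries. ACTA1, the actin of skeletal muscle, stood at 0.502, 81.3, 0.155, 0.0939 and 0.154 TPM, and TNNI2, a fast-muscle troponin, at 1.89, 69.2, 1.18, 2.57 and 1.81 TPM. Pancreas markers, 6 of 11 matched, summed to 4.35, 27.6, 1.67, 13.8 and 3.4 TPM. Adipocyte markers, of interest because backfat is the other tissue of the series, summed to only 15.7, 20.1, 13.5, 11.8 and 11.6 TPM. Kidney markers, 7 of 7 matched, and mesothelium markers summed to less than 1 TPM. Only 2 of 6 mesothelium markers were matched, and 1 of these had no count in any library. The part of these cell types in the low hepatocyte marker sum of liver 67 was not tested.

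**Figure D4:**
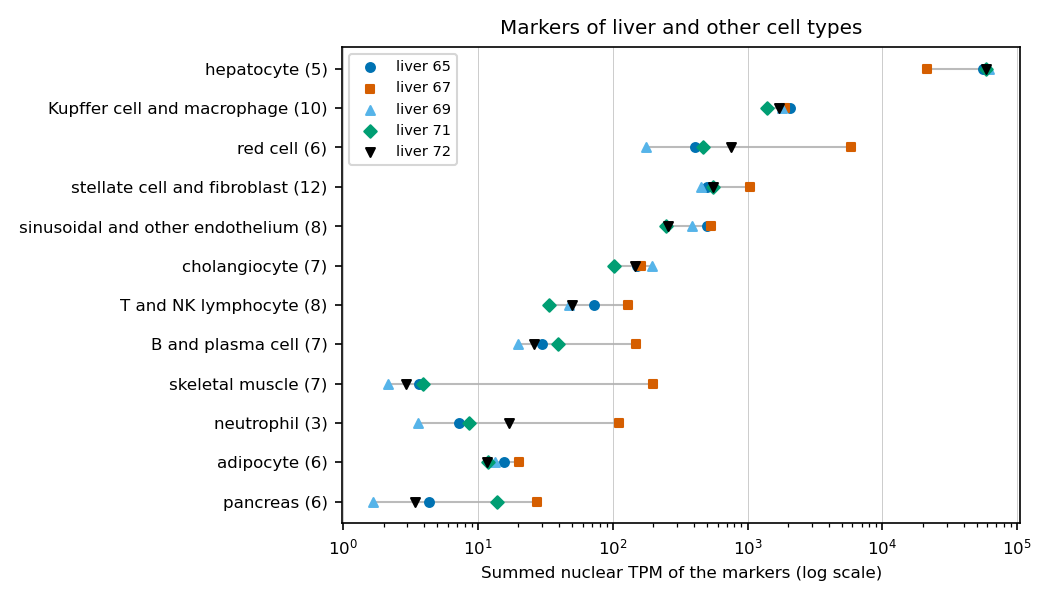
Summed nuclear TPM, on a log axis, of marker genes for 12 cell types with a mean sum of at least 10 TPM, with the number of matched markers in brackets. Liver 67 lay to the left of the other libraries for hepatocytes and to the right for red cells, neutrophils, B cells, fibroblasts and skeletal muscle.

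NUPR1, a small stress-induced chromatin protein, also set liver 67 apart, at 1972, 17670.2, 2779, 3837 and 5119 TPM. Immediate early and stress genes held 0.118%, 0.258%, 0.107%, 0.150% and 0.147%. In TPM, 18 of the 24 members at a mean of 1 TPM or more were highest in liver 67. GADD45G, a DNA damage and stress gene, stood at 77.6, 724, 154, 324 and 103 TPM, and DDIT4, an inhibitor of mTOR signalling, at 111, 301, 90.8, 105 and 109 TPM. CEBPD, the largest member with 28.0% of the list, was not high there, at 392, 390, 300, 527 and 573 TPM. With TMM scaling, CEBPD and DUSP1, another leading member, were lowest in liver 67, at 270 and 134. On the TMM scale the list sum of liver 67, 0.178, was no longer the highest, liver 71 reaching 0.193. Genes shorter than 1000 bases took 5.57%, 8.36%, 5.57%, 8.98% and 8.57% of nuclear counts in livers 65, 67, 69, 71 and 72.

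The spread of single genes over the 5 livers was well above counting error. For the 6372 genes with a mean of at least 10 TPM, the median CV was 31.9%, with quartiles of 22.1% and 45.1%, whereas counting error alone gave a median of 2.36%. Without liver 67 the median CV was 23.4%. A CV under 10% was found for 197 genes, or 3.09%, and a CV over 100% for 102 genes, or 1.60%.

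Among the 963 genes with a mean of at least 100 TPM, the 10 steadiest had CVs of 2.79% to 6.10%. TXNDC5, a disulfide isomerase, stood at 108, 101, 101, 105 and 105 TPM, and ASGR2, a subunit of the receptor that clears desialylated glycoproteins, at 331, 346, 330.3, 307 and 337 TPM. TLE5, RNF10, CDC34, RHOD, CNPY2, NDUFB8 and ADI1 were the other named genes of the 10. This steadiness belonged to the scale. With TMM the same 10 genes had CVs of 21.0% to 27.0%, and the lowest values passed to other genes, such as HNRNPA1, an RNA-binding protein, at 1.10% and RPL10, a ribosomal protein, at 2.67%.

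Abundant genes ranged from steady to variable. CLU, the extracellular chaperone clusterin, was steady at 8014, 8116, 9278, 7463 and 7189 TPM, whereas AHSG varied by 53.0% and TF by 78.9%. CCL16, a chemokine made by hepatocytes, varied 2.0-fold outside liver 67, with 9652, 6496, 8001, 16016 and 11852 TPM. Of the 10 most variable genes at 100 TPM or more, HBB, CCL19, BCL2L2 and TPM2 were highest in liver 67, and so was ISG15. MBL2 was highest in liver 71. The 4 others had no symbol.

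**Figure D5:**
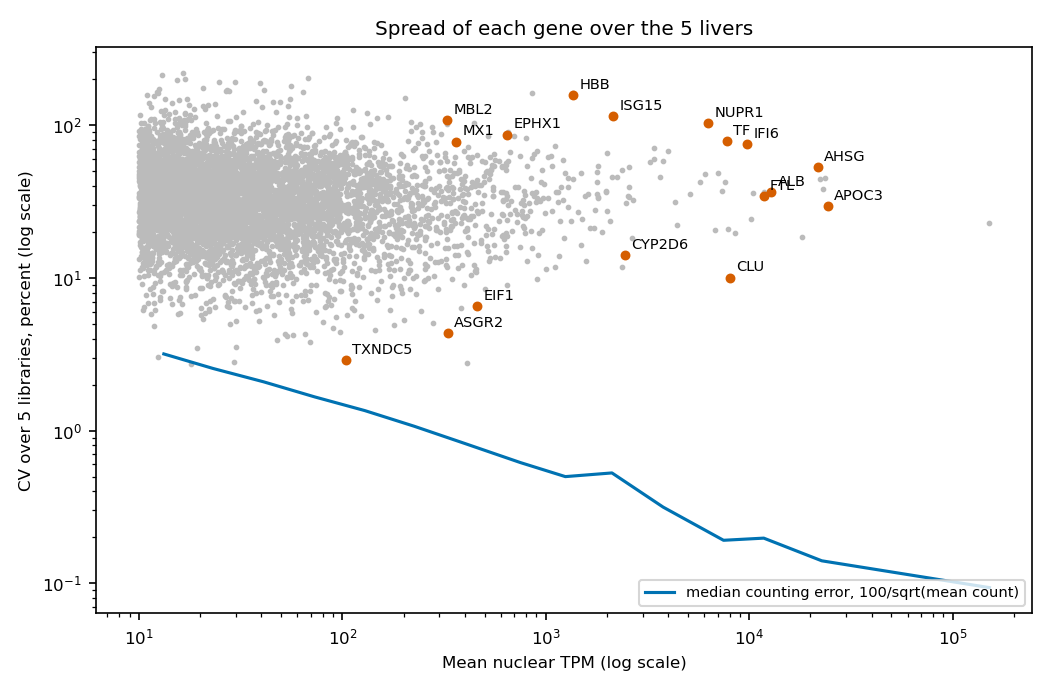
CV of nuclear TPM over the 5 libraries against mean nuclear TPM for genes at 10 TPM or more, both axes on log scales, with 17 genes named. The blue line gives the median counting error at each level, which lay far under the median CV of 31.9%.

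Some of the most abundant genes were neighbours. Of the 71 genes among the first 100 with a position, 11 fell into 5 groups of neighbours within 500 kb. APOC3 and APOA1 both lay in a stretch of 7.19 kb at chr9:44211171-44218360 and together held 3.41%, 4.08%, 3.53%, 6.69% and 5.99% of nuclear TPM. AHSG, FETUB and HRG lay at chr13:124426313-124516387 and held 4.68%, 1.15%, 4.22%, 2.13% and 3.25%. FGG and FGB lay at chr8:74553040-74607409 and held 1.02%, 0.434%, 1.29%, 0.456% and 0.523%. P4HB and ACTG1, genes of unlike function, formed a further pair.

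By chromosome, the named genes of chromosome 6, led by APOE, held 9.81% ± 1.26 (SD, n = 5) of nuclear TPM with 10.6% of the positioned genes at 1 TPM or more. Those of chromosome 9, led by APOC3, held 7.48% ± 1.33 with 4.61% of the genes. Chromosome 12, led by CCL16, held 6.17% ± 0.187 with 6.38% of the genes. These shares count only genes placed by symbol.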

How the data were processed

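Poly(A) RNA of 5 livers was sequenced in paired ends. The authors trimmed the reads and mapped them with HISAT2 against the Sscrofa11.1 genome. They counted fragments per gene over exons with featureCounts 2.0.1 and the Ensembl 99 annotation. No strand option was stated, so overlapping and antisense genes cannot be told apart, and near-identical genes (cytochrome P450, metallothionein, ribosomal protein) are uncertain. The authors deposited raw counts per gene with exonic lengths, and these counts were used as deposited. The animal numbers heading the columns could not be matched to the replicate numbers of the sample titles. Bisulfite files and backfat columns were not used. Values of a few genes are not reported here.

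TPM was computed from counts and lengths after leaving out 37 mitochondrial genes, of which 13 carried names and 24 were recognised by the order of their lengths. Of 31907 genes, 15029 (47.1%) matched a symbol, and 765 of 967 symbols in the 32 functional lists were found. Totals were 43820042 to 53768601 counts, and counting error is given as 100 divided by the square root of the mean count. With 1 group there was no test, and no depth-dependent difference was claimed. Named genes were the 30 most abundant, the hepatocyte markers, the first 4 of each functional list, the first 3 of each marker list, the 10 most and 10 least variable genes at 100 TPM or more, and mitochondrial genes. CFB, ANGPTL8, HNRNPA1 and RPL10 were named after their values were seen. The members and lists were chosen with earlier results of these data known. Alternatives covered mitochondrial genes, length correction, low-value and short-gene filters, the leading gene, scaling, and leaving out each library. Python 3.11.15, pandas 2.3.3, NumPy 2.4.6, matplotlib 3.10.9, R 4.3.3, edgeR 4.0.16 (TMM) and DESeq2 1.42.0 (size factors) were used, and the level and spread computations were tested on simulated data.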

Additional observations from a re-analysis of the deposited data

Results flagged for a closer look

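Of 101 values examined over the 5 livers, 20 had 1 library whose gap to the nearest other exceeded 0.71 of the whole range. In 19 of them this library was liver 67. The values examined are related to each other, since shares of 1 pool move together. Chance would pass this limit in about 1 in 20 unselected values. The 46 single-gene levels among the 101 include genes named for their variation in these data, so that rate is no measure for the 20.

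Liver 67 was the lowest for secreted plasma proteins (13.5% of nuclear TPM), plasma carrier proteins (1.52%), hepatocyte markers (21540.3 TPM), ALB (4654 TPM) and CYP2A19 (18.9 TPM). It was the highest for the lists of iron and metal handling (2.89%), nuclear oxidative phosphorylation (1.04%), cytoskeleton (1.23%) and immediate early and stress genes (0.258%). Of these 4, the cytoskeleton list alone was highest in liver 67 on the TMM scale, whereas liver 71 was highest for the other 3 and liver 67 was lowest for oxidative phosphorylation, at 0.718. Of the 32 lists, liver 67 was the highest for 11 and the lowest for 15 on the TPM scale, and the highest for 1 and the lowest for 25 on the TMM scale. It was also the highest for the marker sums of stellate cells and fibroblasts (1043 TPM), B and plasma cells (149 TPM), neutrophils (111 TPM), red cells (5814 TPM) and skeletal muscle (199 TPM). Among single genes it was the highest for FTL (18954.5 TPM), NUPR1 (17670.2 TPM), HBB (5181 TPM), ACTA1 (81.3 TPM) and HPD (3103 TPM). Liver 71 was slightly higher than liver 67 on the TMM scale for FTL, at 13385 against 13090.5, and for HPD, at 2159 against 2143. The remaining value was MBL2 in liver 71, at 960.4 TPM. The cause of these gaps was not tested.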

How the results depend on the processing

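No paired analysis was possible because the livers form 1 group and no result comes from a test. A floor of 5 TPM in every library left 6856 genes. With the mitochondrial genome included, the first 1, 10, 50, 100 and 1000 genes held 10.4%, 41.2%, 64.9%, 70.4% and 86.9% of TPM, 18 genes held 50% of the pool, and secreted plasma proteins held 15.7%. By CPM the first 1, 10, 50, 100 and 1000 genes held 3.73%, 18.6%, 34.9%, 41.3% and 68.7%, and 228 genes held 50%, the first gene then being APOE. Without the leading gene the first 1, 10, 50 and 100 held 2.89%, 21.4%, 42.2% and 49.9%, and 101 genes held 50%. With genes that have a symbol only, chosen after seeing the data, the first 1 and 10 held 3.51% and 24.6%, 87 genes held 50%, and secreted plasma proteins held 31.9%. The mean correlation between libraries was 0.935 over genes at 1 TPM or more. Leaving out single libraries moved no number of genes by more than 1.5 times. For shares and levels this check could not decide, since leaving out 1 of 5 values always shifts a mean by less than 1 SD. Of single-gene levels, 38 moved by more than 1 SD and 191 did not under the other alternatives. The median CV was 26.6% with TMM and 26.4% with DESeq2 size factors, and the common biological coefficient of variation from edgeR was 39.0%, or 31.7% without liver 67. Shares by function cover named genes only, and 5 libraries limit every SD.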
